A study of Mus musculus with 2 samples.

Results

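Saa3-high monocytes were 378 of the 4887 cells kept from the alveolar bone of mice, 27 of 2835 in the control library and 351 of 2052 in the OTM library (orthodontic tooth movement). The study sorted F4/80+CD11b+ cells as macrophages and sequenced them with the 10x Genomics 3' chemistry, version 2. Both groups were male C57/B6 J mice of 8 weeks. The control group carried no appliance, and in the OTM group a nickel-titanium spring pulled the left first molar for 7 days. A total of 20 mice were split at random between the groups, each group gave 1 library, and how many of the animals went into each library was not given in the sources used here. The cells were described in the labels as alveolar macrophages, although the tissue was bone of the tooth socket.

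Members were selected on measured values, namely shares of the unique molecular identifiers (UMIs, each of which marks 1 captured RNA molecule) of a cell. Saa3 had to reach 0.5%, while neutrophil genes (S100a8 and S100a9) had to stay below 5%, granule genes of progenitors (Elane, Mpo, Prtn3 and Ctsg) below 1% and cell cycle genes (Mki67, Top2a, Birc5 and Ube2c) below 0.04%. Complement genes of resident macrophages (C1qa, C1qb and C1qc) had to stay below 0.05%, MHC class II genes (H2-Aa, H2-Ab1, H2-Eb1 and Cd74) below 1.5%, and genes of non-classical monocytes (Ace, Treml4, Eno3 and Adgre4) below 0.04%. The level of Saa3 and the low levels of those genes are therefore given as a description. The comparator, called Saa3-low monocytes, passed the same upper limits with Saa3 below 0.5% and had at least 0.1% of UMIs from Ccr2, Csf1r, Fn1 and F13a1. It held 678 control and 224 OTM cells.

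Classical monocytes leave the marrow through the chemokine receptor Ccr2, enter inflamed tissue and there become macrophages or, in bone, may join the precursors of osteoclasts. Saa3 codes for serum amyloid A3, an acute phase protein that mouse macrophages and other cells outside the liver make when they meet microbial products or inflammatory cytokines. Acute phase genes of this kind are classical targets of NF-kB, C/EBP and STAT3, which act downstream of Toll-like receptors, interleukin-1 and interleukin-6.

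The promoter windows of Saa3 and of the markers Chil3 and Lrg1 are shown because these genes were high together in the cells described here. They run from 250 bases before to 50 bases after the RefSeq start (GRCm38.p6, written on the strand of the gene), at chr7:46715627-46715926 for Saa3, chr3:106167515-106167814 for Chil3 and chr17:56121897-56122196 for Lrg1, all on the minus strand. Capitals mark matches, on either strand, to TTNNGCAA, a form of the C/EBP site, and to TATAAA, a form of the TATA box.
Saa3: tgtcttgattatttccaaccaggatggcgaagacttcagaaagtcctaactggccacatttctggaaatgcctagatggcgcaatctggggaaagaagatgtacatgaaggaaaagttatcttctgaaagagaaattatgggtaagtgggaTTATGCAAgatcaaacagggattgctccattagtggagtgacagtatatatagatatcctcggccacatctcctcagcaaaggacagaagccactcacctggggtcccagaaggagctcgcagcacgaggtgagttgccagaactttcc
Chil3: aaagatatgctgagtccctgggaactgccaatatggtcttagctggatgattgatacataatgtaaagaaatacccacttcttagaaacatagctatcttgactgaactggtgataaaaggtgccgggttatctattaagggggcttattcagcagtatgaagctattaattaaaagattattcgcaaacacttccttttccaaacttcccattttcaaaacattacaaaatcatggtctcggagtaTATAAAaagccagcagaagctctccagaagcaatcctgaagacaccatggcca
Lrg1: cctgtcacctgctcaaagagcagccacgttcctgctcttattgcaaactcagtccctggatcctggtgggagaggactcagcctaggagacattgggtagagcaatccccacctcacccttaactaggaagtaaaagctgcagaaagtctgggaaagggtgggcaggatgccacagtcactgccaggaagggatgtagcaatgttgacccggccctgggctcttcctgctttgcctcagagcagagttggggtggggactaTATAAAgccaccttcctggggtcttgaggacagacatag
The Saa3 window held 1 C/EBP-like match, whose first base lay at position -99, and no TATAAA. The windows of Chil3 and Lrg1 held 1 TATAAA each and no C/EBP-like match. The TATAAA of Chil3 spanned the RefSeq start and that of Lrg1 lay after it, so neither lay upstream of that start. Other forms of the TATA box were not searched. Of the 32851 promoter windows of the same length, 10.8% held a C/EBP-like match and 13.6% a TATAAA, and the motifs shared no base in the windows printed. These matches describe letters and not bound sites.

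Saa3-high monocytes made up 0.952% of the control library (27 cells, Clopper-Pearson 95% interval 0.629 to 1.38%) and 17.1% of the OTM library (351 cells, 15.5 to 18.8%), an 18.0-fold difference. Among all cells that were members or Saa3-low monocytes, members were 3.83% of 705 in control (2.54 to 5.52%) and 61.0% of 575 in OTM (56.9 to 65.1%). All intervals given here cover counting error only, and with 1 library per condition no test of the conditions was possible. The share is a share of sorted cells, so it says nothing of the number of cells in the tissue, and it follows from the Saa3 limit. The members carried 36.9% of the 3015 Saa3 UMIs of the control library and 70.5% of the 72436 of the OTM library.

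The OTM library was the deeper one, with a median of 6861.5 UMIs per cell against 3998 in control. Members had a median of 4730 UMIs in control and 7533 in OTM, and Saa3-low monocytes 4112.5 and 7276. When every cell was first reduced to 1500 UMIs, members were 0.778% of control and 15.9% of OTM cells. Both libraries shared 6 barcodes, of which 4 belonged to OTM members and none to control members. Of the cells with at least 0.5% Saa3, 34 in control and 448 in OTM, the neutrophil limit removed the most, 5 in control and 65 in OTM, followed in OTM by the cell cycle limit with 32.

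Among members plus Saa3-low monocytes, the distribution of Saa3 differed between the libraries at its low and its high end. Of the 705 control cells, 546 had no Saa3 UMI, and of the 575 OTM cells, 46 had none. The median share was 0 in control and 0.956% in OTM. Neutrophil-gated cells, defined below, differed at the low end too. Of these, 1209 of 1302 in control and 360 of 1103 in OTM had no Saa3 UMI. Their median share was 0 in control and 0.018% in OTM, against 0.033% in OTM Saa3-low monocytes. The fall in cells without Saa3 was thus not particular to monocytes. The part of depth or of free RNA in it was not tested. Members spanned 0.504 to 2.59% in control with a median of 0.671%, and 0.506 to 5.61% in OTM with a median of 1.68%. No gap marked the limit. The nearest cells below it had 0.491% in control and 0.498% in OTM, and 8 control and 18 OTM members lay between 0.5 and 0.6% while 5 and 11 Saa3-low cells lay between 0.4 and 0.5%.

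**Figure D1:**
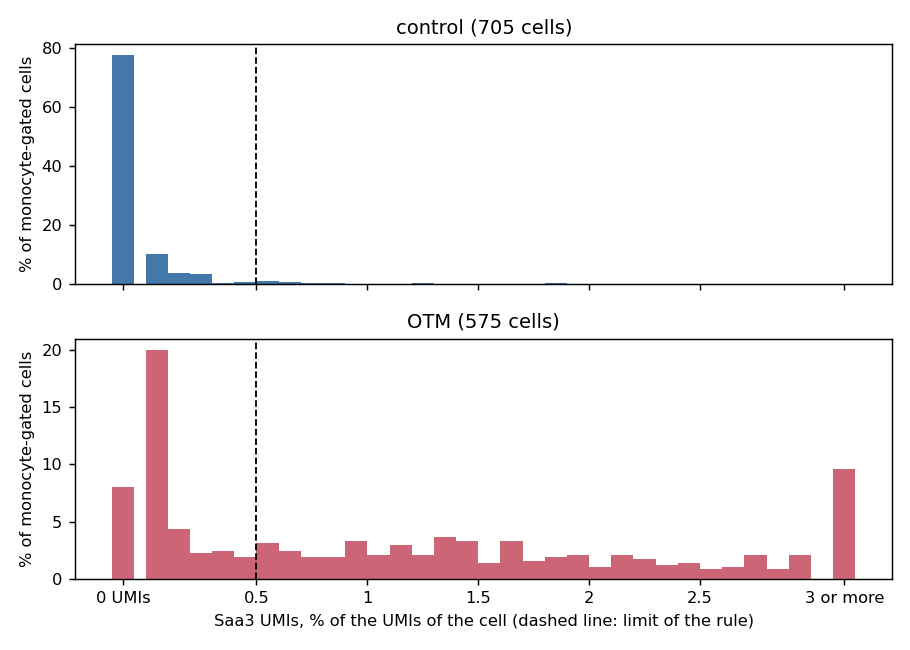
Saa3 UMIs as a percentage of the UMIs of a cell (x axis, bins of 0.1 with cells at 0 UMIs apart on the left) against the percentage of monocyte-gated cells, meaning members plus Saa3-low monocytes (y axis, different scale in each panel), in 705 control cells (top) and 575 OTM cells (bottom). The control cells gather at 0 UMIs, whereas the OTM cells spread on both sides of the dashed 0.5% limit, with 55 of them at 3% or more.

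Monocyte markers were found in members, with a lower summed level than in Saa3-low monocytes. The latter were selected in part on Ccr2 and Csf1r. In members, Ccr2, the receptor for the chemokine Ccl2, was at 611 CPM (counts per 1000000, that is, the UMIs of a gene over all UMIs of the cells in a group) in control and 514 CPM in OTM, close to the 569 and 551 CPM of Saa3-low monocytes and above the 31.2 and 47.2 CPM of neutrophil-gated cells, which had at least 10% of their UMIs from S100a8 and S100a9. Csf1r, the receptor for the growth factor that maintains macrophages, was at 119 and 136 CPM in members and at 206 and 161 CPM in Saa3-low monocytes. At least 0.1% of UMIs came from Ccr2, Csf1r, Fn1 and F13a1 in 24 of 27 control and 337 of 351 OTM members, although the rule did not ask for it. All 8 monocyte markers were found in members of both libraries, with a summed level of 32712 CPM in control and 27173 CPM in OTM, against 36261 and 36813 CPM in Saa3-low monocytes. The sum is weighted by abundant genes such as Lyz2. Its median over single cells was 24181 CPM in control and 18584 CPM in OTM members, against 27951 and 28379 CPM in Saa3-low monocytes. Ly6c2, the surface antigen of classical monocytes, was at 2080 CPM in control members and 1610 CPM in OTM members. In both libraries this was below the level of Saa3-low monocytes, as given further below.

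Neutrophil genes need a place beside every result below, because several genes that were high in members are also abundant in neutrophils. Neutrophil-gated cells were 45.9% of the control and 53.8% of the OTM library. Over 10 neutrophil markers the summed level in members was 9791 CPM in control and 13446 CPM in OTM, against 8084 and 9313 CPM in Saa3-low monocytes and 406108 and 370972 CPM in neutrophil-gated cells, and no marker was at 0. In OTM, S100a8 was at 8417 CPM in members and 4446 CPM in Saa3-low monocytes. The granule genes Camp, Ngp and Ltf, by contrast, were at 535, 876 and 98.1 CPM in OTM members and at 568, 829 and 112 CPM in Saa3-low monocytes. Retnlg, another abundant neutrophil gene, was at 723 and 831 CPM, and S100a9 at 1939 and 2052 CPM. These genes were picked after their values were seen. Over all 10 neutrophil markers the OTM ratios of members to Saa3-low monocytes lay between 0.859 and 1.99, the highest that of Mmp8, with 5 above 1 and 5 below it. The part of neutrophil RNA in the results below was not tested.

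Markers of most other cell types were low in the members. All 5 dendritic cell markers and all 4 stromal markers were at 0 in control members, and in OTM members they summed to 25.3 and 1.89 CPM. The basophil and mast cell genes Mcpt8, Cpa3 and Prss34 were at 0 in members of both libraries. The 4 B cell markers summed to 14.9 CPM in control and 9.06 CPM in OTM. The erythroid list, which includes hemoglobin genes, summed to 365 CPM in control and 85.3 CPM in OTM members, and to 340 and 96.3 CPM in Saa3-low monocytes. Granulocyte progenitor genes summed to 149 and 382 CPM in control and OTM members, and to 165 and 313 CPM in Saa3-low monocytes. Macrophage markers summed to 134 and 176 CPM in members, and to 140 and 198 CPM in Saa3-low monocytes. T and NK cell markers summed to 37.3 and 5.66 CPM in members, and osteoclast markers to 14.9 and 29.8 CPM. The rule limited the progenitor genes and the C1q genes among the macrophage markers.

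The 5 marker genes lie, in GENCODE vM21 on GRCm38, at chr7:46711998-46715700 (Saa3, minus strand), chr3:106147554-106167564 (Chil3, minus), chr17:56119678-56122001 (Lrg1, minus), chr5:43868553-43912375 (Cd38, plus) and chr2:129299610-129309972 (Il1a, minus). Saa3 was at 8307 CPM in control members and 19287 CPM in OTM members, and at 277 and 1028 CPM in Saa3-low monocytes. Neutrophil-gated cells had 42.2 CPM in control and 938 CPM in OTM, which is the summed level of Saa3 UMIs found in cells of another type. In OTM it was uneven, since their median share was 0.018% and their highest 2.97%. Chil3, a chitinase-like protein of activated myeloid cells also known as Ym1 and with a close copy in Chil4 between which reads can be split, was at 4265 CPM in control members and 21854 CPM in OTM members, with 2513 and 8411 CPM in Saa3-low monocytes. In single cells Chil3 ranged from 0 to 15818 CPM with a median of 2726 CPM over the 27 control members, and from 0 to 73141 CPM with a median of 21432 CPM over the 351 OTM members. The ranges overlapped, but the median of the OTM members lay above the highest control member. Neutrophil-gated cells held Chil3 too, with a UMI in 81.8% of these cells in control and 94.8% in OTM. Their 5 marker genes summed to 7506 CPM in control and 12742 CPM in OTM, little of it Saa3. The same sums were 2898 and 10102 CPM in Saa3-low monocytes, and 12900 and 42878 CPM in members. Chil3 was thus not particular to monocytes, and the part of neutrophil RNA in its levels was not tested.

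Lrg1, a secreted leucine-rich glycoprotein that acts on TGF-beta signalling in vessels, was at 261 CPM in control members and 1142 CPM in OTM members. Saa3-low monocytes had 53.5 and 294 CPM, and neutrophil-gated cells 550 and 1335 CPM. After thinning to 1500 UMIs per cell, a Lrg1 UMI was found in 69.8% of OTM members (64.7 to 74.6%), 22.8% of OTM Saa3-low monocytes and 77.8% of OTM neutrophil-gated cells, whose median depths before thinning were 7533, 7276 and 5572 UMIs. In control the same shares were 14.8%, 5.60% and 49.8%, at median depths of 4730, 4112.5 and 3270 UMIs. Without thinning, 88.6% of OTM members and 59.3% of control members had a Lrg1 UMI.

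Cd38, an ectoenzyme that degrades NAD, gave no UMI among the 134109 of the control members, which allows a level of up to 22.4 CPM. In OTM members it was at 94.4 CPM, which is 4.22-fold that level of 3 UMIs, and in OTM Saa3-low monocytes at 35.0 CPM. The counting interval of the ratio of OTM to control members had a lower limit of 3.41. After thinning, 14.2% of OTM members had a Cd38 UMI (10.8 to 18.3%), against 4.46% of Saa3-low monocytes (2.16 to 8.06%) and 0.997% of neutrophil-gated cells. Without thinning the share in OTM members was 42.5%. In control it was 0 of 27 members, which allows a share of up to 12.8%, and 0.295% of Saa3-low monocytes. A control level below 22.4 CPM could not be told from 0 at this depth.

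Il1a, which codes for interleukin-1 alpha, was at 67.1 CPM in control members and 501 CPM in OTM members. It was at 52.9 and 334 CPM in Saa3-low monocytes, a ratio of members to Saa3-low monocytes of 1.27 in control (0.570 to 2.47) and 1.5 in OTM (1.36 to 1.66). The control ratio rested on 9 UMIs of 7 cells and its log2 value, 0.42, was -1.76 with Saa3 at 1% or more and -1.69 after thinning. A thinned Il1a UMI was found in 39.9% of OTM members, 28.1% of OTM Saa3-low monocytes and 11.7% of neutrophil-gated cells. In control, 0 of 27 members had one after thinning and 7 without it.

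**Figure D2:**
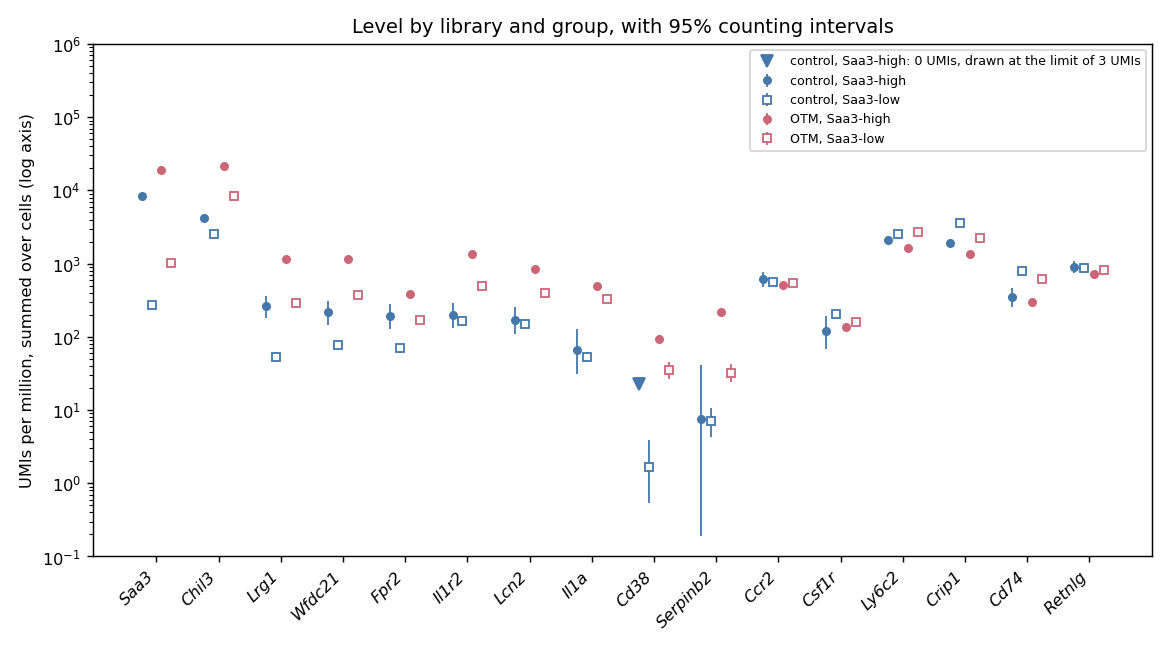
CPM from UMIs summed over cells (y axis, log scale) for 16 genes (x axis) in Saa3-high (filled circles) and Saa3-low monocytes (open squares) of the control (blue) and OTM (red) libraries, with 95% Poisson counting intervals. Chil3, Lrg1, Wfdc21, Il1r2 and Lcn2 are highest in the OTM Saa3-high cells, Ccr2 and Retnlg lie close together in all 4 groups, and Cd38 in control members, with 0 UMIs, is drawn at 22.4 CPM. The Saa3-low cells were selected in part on Ccr2 and Csf1r.

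The first comparison asked what else distinguished members from Saa3-low monocytes of the same library. In the OTM library, 17 of 1477 genes with at least 200 UMIs in the members were 2-fold or more higher in members (1.15% of genes) and 4 were 2-fold or more lower (0.271%), leaving out the genes that chose the groups. The minimum was counted in members alone, so genes low in members could not pass it. With 50 UMIs as the minimum the counts were 43 and 23, and with a mean of 100 CPM over members and Saa3-low monocytes, chosen after seeing the data, they were 11 and 5. In both libraries 6 genes were past 2-fold higher (0.406%) and 0 genes lower (0%), and 3 were higher with the minimum of 100 CPM on the mean of the 4 groups. The 6 counted genes were Lrg1, Wfdc21, Fpr1, Fcor, Fpr2 and Cd38, where Cd38 passed in control through the 0.5 UMIs added before the ratio, since it had no UMI there. Since Saa3 separated the groups, these ratios describe what went along with it and are not tests.

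Wfdc21, a secreted protease inhibitor-like protein, was at 216 CPM in control members against 77.1 CPM in Saa3-low monocytes, and at 1175 against 370 CPM in OTM. It was 2.80-fold higher in control (1.84 to 4.14) and 3.18-fold higher in OTM (2.91 to 3.47). Neutrophil-gated cells had more of it in both libraries, 6422 and 6156 CPM. Lrg1 was 4.88-fold (3.28 to 7.06) and 3.89-fold (3.53 to 4.29) higher in members.

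The formyl peptide receptors, which sense bacterial and mitochondrial peptides, were both higher in members. Fpr2 was at 194 CPM against 69.8 CPM in control and at 382 against 169 CPM in OTM, a ratio of 2.78 (1.77 to 4.19) and 2.26 (1.98 to 2.59). Fpr1 rested on 3 UMIs in control members, with a ratio of 2.24 (0.438 to 7.21), and was 2.57-fold higher in OTM (2.01 to 3.32). Neutrophil-gated cells had 214 and 601 CPM of Fpr1 and 314 and 337 CPM of Fpr2. Chil3 was 1.70-fold higher in control (1.56 to 1.85) and 2.60-fold higher in OTM (2.55 to 2.65).

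Fcor, a small regulator of Foxo1, was 2.36-fold higher in control members on 8 UMIs (0.984 to 4.89) and 2.52-fold higher in OTM (1.91 to 3.36). Further down the same order came Dgat2, which makes triglycerides, with a ratio of 1.83 in both libraries, Ifitm1, an interferon-induced membrane protein, with 2.31 in control and 1.77 in OTM, and Gm10320 with 1.73 and 1.85. The control ratio of Dgat2 rested on 8 UMIs, with an interval of 0.769 to 3.75. Il10, an anti-inflammatory cytokine, was at 104 CPM in control members and 97.0 CPM in OTM members, against 63.8 and 57.7 CPM in Saa3-low monocytes. Its ratio was 1.64 in control (0.878 to 2.81), on 14 UMIs of 5 cells, and 1.68 in OTM (1.32 to 2.15).

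The other genes past 2-fold in OTM did not reach it in control, where most of them had few UMIs. Serpinb2, an inhibitor of plasminogen activators made by stimulated monocytes, was at 219 CPM in OTM members and 32.5 CPM in OTM Saa3-low monocytes, 6.72-fold higher (5.07 to 9.08). Its UMIs came from 81 of the 351 members, and 1 cell held 58 of the 579. In control members it had 1 UMI. Il1r2, the decoy receptor that binds interleukin-1 without signalling, was 2.75-fold higher in OTM members (2.55 to 2.97) and 1.24-fold in control (0.808 to 1.82). Thbs1, a matrix glycoprotein that activates TGF-beta, was at 1165 against 547 CPM in OTM, and Lcn2, the iron-withholding lipocalin, at 841 against 401 CPM. Neutrophil-gated cells of control and OTM had 946 and 1319 CPM of Il1r2, 6981 and 9268 CPM of Lcn2, 377 and 207 CPM of Thbs1, and 5.43 and 43.9 CPM of Serpinb2.

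The remaining genes of that group were Prnp at 2.73-fold, Tmem176a at 2.31-fold and its neighbour Tmem176b at 2.19-fold, Gclm, an enzyme of glutathione synthesis, at 2.31-fold, Apoc1, an apolipoprotein, at 2.07-fold and Spp1, the matrix protein osteopontin, at 2.03-fold. Their levels in OTM members lay between 100.4 CPM for Prnp and Gclm and 267 CPM for Apoc1. Without thinning, a Spp1 UMI was found in 18.2% of OTM members and 18.8% of OTM Saa3-low monocytes, so its share of cells was not higher in members.

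Genes lower in members formed a smaller group. Cd74, the invariant chain of MHC class II, was at 350 CPM in control members and 299 CPM in OTM members, against 791 and 620 CPM in Saa3-low monocytes, but its level was held down by the rule in both groups. Crip1, a LIM domain protein, was at 1916 against 3582 CPM in control and 1370 against 2273 CPM in OTM, a ratio of 0.535 (0.471 to 0.606) and 0.603 (0.576 to 0.631). Jun, an immediate early transcription factor, had ratios of 0.451 and 0.553. The other 5 with the lowest ratios in both libraries were Arl5c, Pid1, Rgs2, Itgb7 and Irf7, the last a regulator of interferon genes, with OTM ratios between 0.601 and 0.655. In control, Arl5c, Pid1, Itgb7 and Irf7 rested on 7 to 14 UMIs in members, and their intervals included a ratio of 1. That of Rgs2 did not (0.415 to 0.977). Ly6c2 was at 0.825 of the Saa3-low level in control (0.729 to 0.930) and 0.591 in OTM (0.566 to 0.616).

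In OTM the 4 genes past 2-fold lower were Cxcl10, an interferon-induced chemokine, at 274 against 571 CPM, Tnfsf9, the ligand of 4-1BB, at 232 against 475 CPM, the inhibitory receptor Cd300a at 74.4 against 153 CPM, and the transcriptional regulator Id3 at 95.5 against 193 CPM. Cxcl10 and Tnfsf9 were on the other side in control, at 649 against 141 CPM and 201 against 81.1 CPM. There, 1 of the 27 members held 49 of 87 Cxcl10 UMIs and 1 held 16 of 27 Tnfsf9 UMIs.

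**Figure D3:**
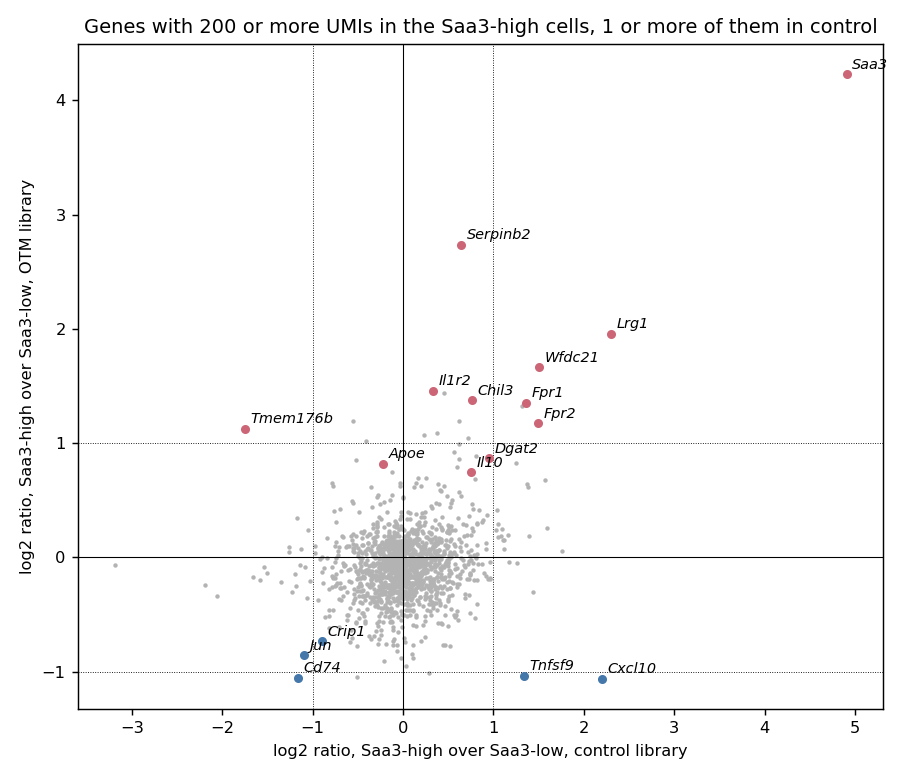
Log2 ratio of Saa3-high over Saa3-low monocytes in the control library (x axis) and the OTM library (y axis), 1 point for each gene with 200 or more UMIs in the Saa3-high cells and at least 1 of them in control, with dotted lines at 2-fold. Saa3 itself, which chose the groups, lies far out at 4.91 and 4.23, Lrg1, Wfdc21, Fpr1 and Fpr2 lie past 2-fold on both axes, and Cxcl10 and Tnfsf9 lie on opposite sides of 0.

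Along the range of Saa3 in the OTM library, several genes moved by degrees and not in a step at the limit. The 575 cells were placed in 7 bins, below 0.05% (138 cells), 0.05 to 0.25% (59), 0.25 to 0.5% (27), 0.5 to 1% (73), 1 to 2% (140), 2 to 3% (83) and 3% or more (55). Chil3 was at 5207, 11549, 16048, 15378, 21002, 26614 and 26010 CPM in this order. Lrg1 was at 162, 353, 732, 684, 1003, 1527 and 1570 CPM. Il1r2 was at 272 CPM in the lowest and 1848 CPM in the highest bin. Both bins next to the limit, 0.25 to 0.5% and 0.5 to 1%, were nearly level for these 3 genes.

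Wfdc21 was at 195 CPM in the lowest and 1535 CPM in the highest bin, Lcn2 at 298 and 1201 CPM, Thbs1 at 406 and 1409 CPM, Fpr1 at 28.8 and 174 CPM and Cd38 at 25.7 and 127 CPM. Tmem176b was at 107 CPM in the lowest bin and 427 CPM in the highest. Il1b, the secreted interleukin-1 beta, had a flatter course, from 5678 to 10753 CPM, and Il1a was at 279 CPM in the lowest bin and at 536 CPM in the highest. Serpinb2 did not follow the same course. It stayed at 8.51 to 39.0 CPM in the 3 bins below 0.5% and was at 179 to 310 CPM in the 4 bins above it. Spp1 and Il10 did not rise along the range either. Spp1 was at 58.6 CPM in the lowest bin, 193 CPM at 2 to 3% and 34.7 CPM in the highest. Il10 was at 70.9 CPM in the lowest bin, 148 CPM at 0.5 to 1% and 37.2 CPM in the highest.

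In the opposite direction, Ly6c2 was at 3068 CPM in the lowest bin and 1072 CPM in the highest. Crip1 was at 2670 and 888 CPM, Cxcl10 at 748 and 186 CPM, and Cd300a at 181 and 62.0 CPM. Ccr2 was at 546 CPM in the lowest and 585 CPM in the highest bin and never below 485 CPM, and Csf1r lay between 109 and 171 CPM in all 7 bins. Depth and the libraries' free RNA are shared by all genes of a cell, and the part of either in these courses was not tested. In control, 600 of the 705 cells fell in the lowest bin and 8 at 1% or more, too few for a course.

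**Figure D4:**
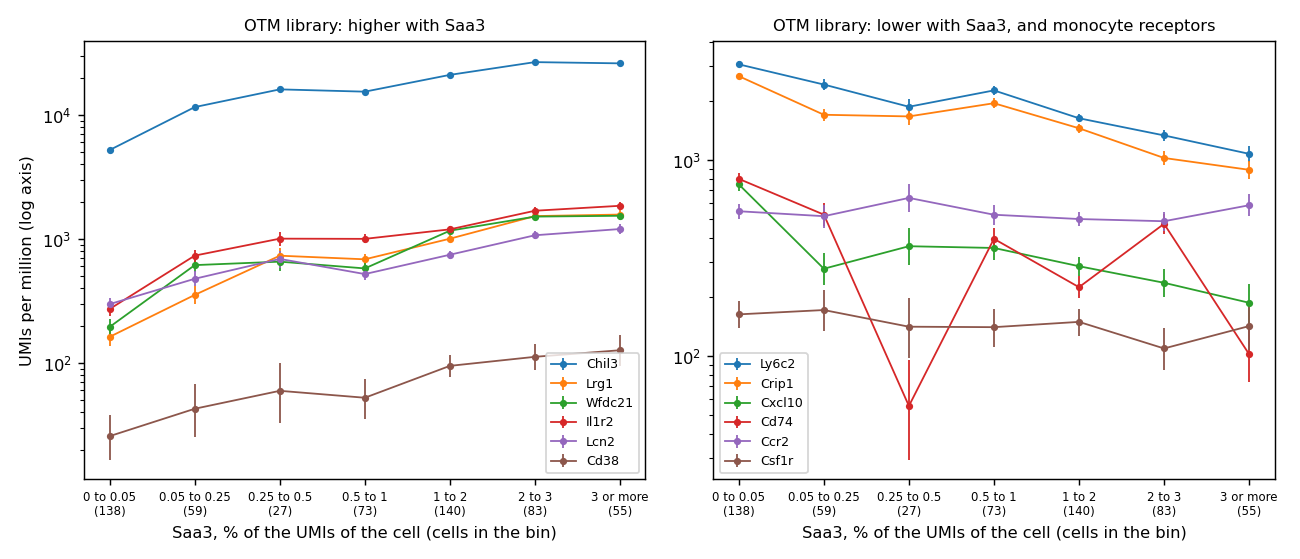
CPM (y axes, log scale) in 7 bins of the Saa3 share of a cell in the OTM library (x axes, with the number of cells in each bin), with 95% Poisson counting intervals. On the left Chil3 goes from 5207 to 26010 CPM and Lrg1 from 162 to 1570 CPM, and on the right Ly6c2 goes from 3068 to 1072 CPM while Ccr2 stays between 485 and 638 CPM.

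The second comparison set the members of OTM against those of control. Of 1486 genes with at least 200 UMIs, 88 were 2-fold or more higher in OTM members (5.92%) and 28 were 2-fold or more lower (1.88%), so 75.9% of these genes were on the higher side. The minimum was on the sum over both libraries, of which OTM members gave most UMIs, so a gene high in control members alone could hardly pass it. With a mean of 100 CPM over both libraries as the minimum instead, chosen after seeing the data, 46 genes were higher and 41 lower, and with a sum of 50 UMIs 325 were higher and 300 lower. The split between higher and lower thus changed with the minimum, and nothing is read from it. With TMM scaling, which moved the median of all genes by 0.31 on the log2 scale, the counts were 146 and 7 and the higher side held 95.4%. The 27 control members gave 134109 UMIs against 2648899 of the OTM members, so the control level is the less certain side of each ratio. With at least 1000 UMIs per gene, a minimum chosen after seeing the data, 25 genes were higher and 1 was lower. The median log2 ratio of all genes with 20 or more UMIs was -0.22, against which the ratios below can be read.

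Of the 10 largest ratios, those of Apoe, Il1r2 and Il1a had more than 2 UMIs in control. Apoe, the apolipoprotein that macrophages secrete, was at 954 CPM in control members and 6540 CPM in OTM members, 6.85-fold higher (5.76 to 8.22). In single OTM members it ranged from 0 to 35832 CPM with a median of 5677 CPM, and in control from 0 to 4150 CPM with a median of 258 CPM. Il1r2 was at 201 and 1366 CPM, 6.78-fold higher (4.66 to 10.3), and Il1a was 7.46-fold higher (3.92 to 16.3) on 9 control UMIs.

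The other 7 of the 10 largest rested on 0 to 2 control UMIs. Ccl5, a chemokine for T cells, was at 262 CPM in OTM members and had 1 UMI in control, a ratio of 35.1 with an interval of 6.28 to 1388. Serpinb2 had a ratio of 29.3 (5.24 to 1160) and Tnf, the tumour necrosis factor gene, one of 17.0 (3.03 to 674). Ddrgk1 had 14.5 (2.59 to 576), the peptidase Dpep2 12.1 (3.32 to 99.8) and the Fc receptor Fcgr4 13.1 (2.32 to 518). Cd38 has been given above.

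Most of these genes were also higher in OTM among Saa3-low monocytes, where control held 678 cells. There Chil3 was 3.35-fold higher in OTM (3.25 to 3.44), Lrg1 5.49-fold (4.58 to 6.61), Cd38 21.0-fold (8.51 to 67.3), Il1a 6.31-fold (5.28 to 7.58), Apoe 3.32-fold (3.18 to 3.47) and Il1r2 3.06-fold (2.73 to 3.43). In members, Chil3 was 5.12-fold higher (4.72 to 5.57) and Lrg1 4.38-fold (3.14 to 6.30). Whether the difference between OTM and control was larger in members than in Saa3-low monocytes was not tested. Ddrgk1 was an exception, at 102 CPM in control and 113 CPM in OTM Saa3-low monocytes.

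The 10 smallest ratios were those of Pglyrp1, BC005537, Notch2, Gna13, Hacd4, Cxcl3, Mt2, Aif1, G0s2 and Nr4a1, between 0.349 and 0.415. Pglyrp1, a peptidoglycan-binding protein of granulocytes, was at 321 CPM in control and 112 CPM in OTM members, and at 4077 and 3690 CPM in neutrophil-gated cells. Cxcl3, a chemokine for neutrophils, was at 768 and 304 CPM, but 1 control member held 47 of its 103 UMIs. G0s2, an inhibitor of lipolysis, had 28 of 46 control UMIs in 1 cell, and Mt2, a metal-binding protein, 30 of 108.

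The counts of list genes that follow stand beside the 5.92% and 1.88% of all genes past 2-fold higher and lower between the libraries, over few genes each, and nothing particular to a list is read from them. Counts above 0 stand beside those of all 5945 genes with 20 UMIs. Of these, 2240 were above 0 between the libraries and 2211 between members and Saa3-low monocytes of OTM. Among the ligands and receptors of the interleukin-1 family, 4 of 7 genes with 200 UMIs were past 2-fold higher in OTM members and 0 lower. They were Il1a, Il1r2, Il1b and Pycard, an adaptor of the inflammasome. Il1b was at 2655 CPM in control and 9200 CPM in OTM members, 3.47-fold higher (3.12 to 3.86). The median of the list, over 12 genes with 20 UMIs, was -0.04, with 6 of the 12 above 0. Within OTM, Il1r2 was the 1 gene of the list past 2-fold between members and Saa3-low monocytes.

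Of 7 acute phase genes, Saa3, which the rule used, and Lrg1 and Lcn2 were past 2-fold higher in OTM members. Lcn2 was at 172 and 841 CPM, 4.90-fold higher (3.26 to 7.75). Without Saa3, the list had a median log2 ratio of 1.00 between OTM and control members and of 0.63 between OTM members and Saa3-low monocytes, where the median of all genes was -0.11, with 6 of 8 genes above 0 in each. Saa3, Lrg1 and Lcn2 were also the 3 genes of this list past 2-fold in the latter comparison.

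Of 21 genes of the NF-kB response, 4 were past 2-fold higher and 0 lower between OTM and control members, namely Tnf, with 1 control UMI, Il6, Bcl2a1b and Bcl2a1d. Il6, the cytokine that induces the acute phase, was at 246 CPM in control members and 672 CPM in OTM members. The survival genes Bcl2a1b and Bcl2a1d belong to a family of near-identical copies, between which reads can be split. Within OTM, 0 of 21 were past 2-fold, and Tnf was at 127 CPM in members and 139 CPM in Saa3-low monocytes. Of 9 genes of IL-6, IL-10 and STAT3 signalling, Il6 and the receptor chain Il10rb were past 2-fold higher.

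The chemokine ligands went both ways. Of 10 genes, Ccl4, Ccl5 and Cxcl1 were higher and Cxcl3 and Cxcl10 lower in OTM members. Cxcl1, a chemokine for neutrophils, was at 477 and 1139 CPM, and Ccl4 at 917 and 2033 CPM. Ccl2, the ligand of Ccr2, was at 1186 CPM in control and 623 CPM in OTM members, and at 862 and 1057 CPM in Saa3-low monocytes. Of 3 chemokine receptors 0 were past 2-fold, and Ccrl2 was at 1171 and 1724 CPM and Ccr1 at 365 and 556 CPM.

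Among surface sensors, 2 of 5 Fc receptors were past 2-fold higher in OTM members, Fcgr4, with 1 control UMI, and Fcgr1, at 104 and 252 CPM. Fpr1 was the 1 of 9 pattern recognition genes past 2-fold higher between the libraries, on 3 control UMIs. Of the 3 genes of NAD metabolism and ectoenzymes, Cd38 was past 2-fold higher. Of 20 classical monocyte genes, Ms4a6d, Thbs1 and the coagulation factor gene F10 were past 2-fold higher, at 668, 1165 and 728 CPM in OTM members and 261, 537 and 343 CPM in control members.

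Among secreted and enzyme genes, the matrix proteases and inhibitors gave 2 of 4 past 2-fold higher, Mmp8 and Serpinb2. Mmp8, a neutrophil collagenase, was at 268 CPM in control and 779 CPM in OTM members, at 391 CPM in OTM Saa3-low monocytes and at 1362 CPM in OTM neutrophil-gated cells. Growth and remodelling factors gave 2 of 7, Spp1 and Thbs1, and macrophage polarization genes 2 of 3, Chil3 and the arginase Arg2. Over the 7 polarization genes with 20 UMIs the median log2 ratio was -0.19, with 2 of 7 above 0. The median of all genes was -0.22, with 2240 of 5945 above 0. The lysosomal proteases Ctsl and Lgmn were 2 of 18 lysosome genes, and Gclm was higher and Mt2 lower among 13 antioxidant and iron genes.

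Of 10 interferon response genes 0 were past 2-fold in either direction, and Ifitm3 was at 4549 CPM in control and 4562 CPM in OTM members. Within OTM the list had a median log2 ratio of -0.39 between members and Saa3-low monocytes, with 2 of 23 genes above 0. Of all genes, 2211 of 5945 were above 0 there. Ifi27l2a was at 1916 against 3087 CPM. Antigen presentation genes had a median of -0.47 in that comparison, with 0 of 15 above 0, but the rule limited Cd74 and 3 other MHC class II genes. H2-DMa and Cd83 were past 2-fold lower between OTM and control members, at 109 against 246 CPM and 163 against 328 CPM, and in TMM scaling the median of the list between OTM and control members was -0.01.

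Of 15 immediate early and heat shock genes, Ier2 and Nr4a1 were past 2-fold lower in OTM members, and Nr4a1 and Fosl2 were 2 of 11 myeloid transcription factors that were so. The immediate early list had a median of -0.35 within OTM, with 3 of 22 above 0. Such genes also respond to enzymatic release of cells, which both libraries went through. No gene was past 2-fold among 3 of osteoclast differentiation, 12 of glycolysis and hypoxia, 7 of the integrated stress response and 12 ribosomal protein genes. In these, Tyrobp was at 3579 CPM in control and 2905 CPM in OTM members, Fos at 753 and 431 CPM, Gapdh at 649 and 829 CPM, Pkm at 649 and 825 CPM, Hspa5 at 492 and 735 CPM, Slc7a11 at 216 and 276 CPM, Rpl41 at 9485 and 7893 CPM and Rpl13 at 5816 and 5172 CPM.

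**Figure D5:**
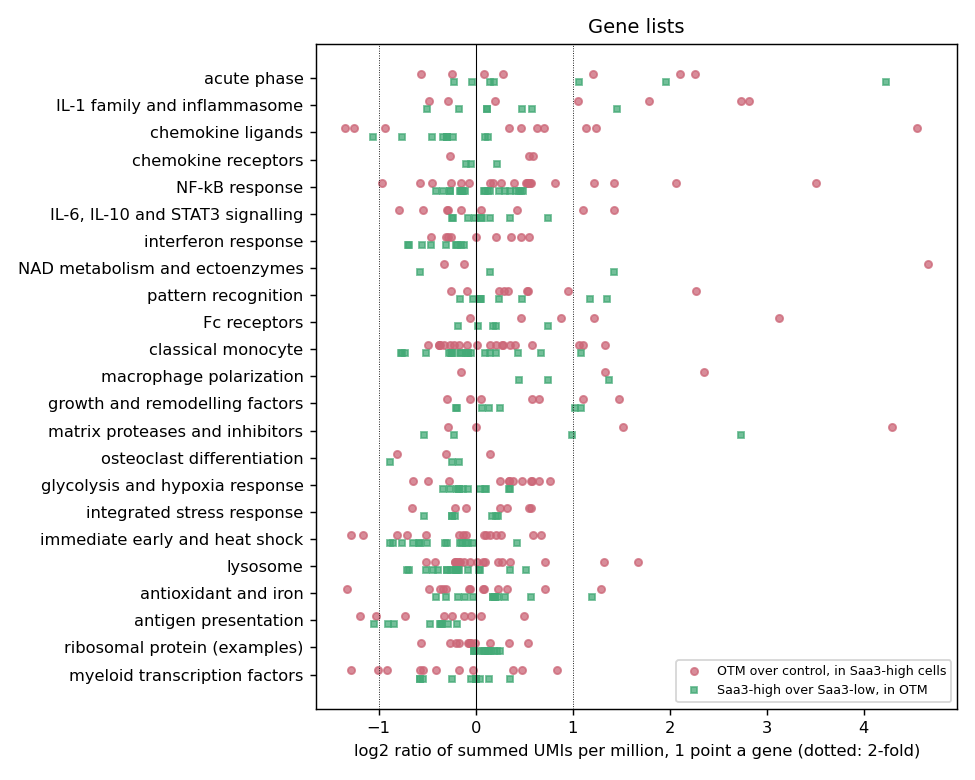
Log2 ratio (x axis) of genes with 200 or more UMIs in 23 gene lists (y axis), for OTM over control in Saa3-high cells (red circles) and for Saa3-high over Saa3-low monocytes in OTM (green squares), 1 point a gene and dotted lines at 2-fold. The acute phase list has 3 genes past 2-fold in both comparisons. They include Saa3, at 1.21 and 4.23, which chose the groups. Most other lists lie around 0 in the second comparison, and all lists were chosen with earlier results of these data known.

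Members varied among themselves in more than Saa3. After thinning to 1500 UMIs, the 10 genes with the highest Fano factor (variance over mean, which would be near 1 for counting error alone), taking the lower of both libraries, were Cxcl2, Actb, S100a8, Ccl4, Cd74, Slpi, Fos, Lyz2, Ccl2 and Saa3. Cxcl2, a chemokine for neutrophils, had a Fano factor of 11.95 in control and 12.1 in OTM, and its level in single OTM members ranged from 245 to 83707 CPM with a median of 25648 CPM. Ccl4, a chemokine for macrophages and lymphocytes, had 7.85 and 12.2, and its highest OTM member stood at 36020 CPM with a median of 553 CPM. Slpi, an inhibitor of neutrophil elastase, had 5.49 and 10.7. Cd74 ranged from 0 to 8798 CPM in OTM members, of which 158 of 351 had a UMI.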

How the data were processed

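F4/80+CD11b+ cells from mouse alveolar bone were measured as 1 control and 1 OTM library. The authors processed the reads with Cell Ranger 3.0.0 on mm10 and deposited UMI counts per gene and barcode, without normalization. Total counts per kept cell had medians of 3998 (control) and 6861.5 (OTM). The tables held 2863 control and 2058 OTM barcodes, and those with at least 200 genes and at most 5% of mitochondrial UMIs were kept. The members and all gene lists were chosen with earlier results of these data known.

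Levels are counts per 1000000 (CPM), from the summed UMIs of each group. Levels have exact Poisson, shares Clopper-Pearson and ratios exact conditional binomial 95% intervals, and 0.5 UMIs were added before log2 ratios. Ratios past 2-fold were counted over genes with at least 200 UMIs summed over the members of both libraries, and list medians over genes with at least 20. A level of 0 allows up to 3 UMIs of the total. With 1 library per group, there were no tests, and barcodes thinned to 1500 UMIs gave shares of cells with a UMI. The genes named are the markers and rule genes, the 10 largest and 10 smallest ratios between libraries, the 12 highest and 8 lowest ratios over Saa3-low monocytes, the 10 highest Fano factors and list genes past 2-fold (or the 2 with most UMIs). Others, such as Camp, Retnlg, Il1b in the bins and the genes past 2-fold in OTM alone, were chosen after their values were seen. Of the listed genes, Il36g, Cebpd and Clec7a were not matched. Promoter sequences came from RefSeq (GRCm38.p6), which matched 9 of 10 genes searched.

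The tools were scipy 1.17.1, numpy 2.4.6 and pandas 2.3.3 under Python 3.11.15. TMM factors came from edgeR 4.0.16 in R 4.3.3. Scrublet, run through scanpy 1.11.5, called 1 control and 4 OTM barcodes doublets and no member, too few to serve as a removal of doublets. The alternatives were other filters, limits of the rule, scalings and minimums.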

Additional observations from a re-analysis of the deposited data

Results flagged for a closer look

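Between members and Saa3-low monocytes, 27 genes went in opposite directions in the 2 libraries with both counting intervals apart from a ratio of 1, and 13 of them belong to the named genes or lists. The difference between the libraries was not tested, and the intervals leave out the spread between cells, of which control members had 27. Il1rn, the interleukin-1 receptor antagonist, had a log2 ratio of 0.63 in control and -0.18 in OTM. Traf1, a signalling adaptor, had a log2 ratio of 0.82 in control and -0.41 in OTM. Cxcl3, a chemokine for neutrophils, had a log2 ratio of 1.44 in control and -0.30 in OTM. Cxcl10, an interferon-induced chemokine, had a log2 ratio of 2.21 in control and -1.06 in OTM. Tmem176b, a membrane protein, had a log2 ratio of -1.75 in control and 1.13 in OTM.

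Ppp1r15a, a stress-induced phosphatase subunit, had a log2 ratio of 0.80 in control and -0.53 in OTM. Ctsc, a protease that activates granule enzymes, had a log2 ratio of 0.46 in control and -0.25 in OTM. Ier2, an immediate early gene, had a log2 ratio of 0.43 in control and -0.58 in OTM. Hspa8, a constitutive chaperone, had a log2 ratio of 0.24 in control and -0.0997 in OTM.

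Ccl2, the ligand of Ccr2, had a log2 ratio of 0.46 in control and -0.76 in OTM. Nfkbia, the NF-kB inhibitor, had a log2 ratio of 0.17 in control and -0.26 in OTM. Nfkbiz, a nuclear regulator of NF-kB targets, had a log2 ratio of 0.74 in control and -0.15 in OTM. Tnfsf9, the ligand of 4-1BB, had a log2 ratio of 1.34 in control and -1.03 in OTM.

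Several control values rested on 1 cell. As an alternative chosen after seeing the data, the control member with the most UMIs of a gene was left out. The log2 ratio in control was then 1.12 for Cxcl10 and 0.68 for Cxcl3, 0.16 for Tnfsf9 and -0.16 for Ier2, which turned to the side it had in OTM. Tmem176b, with 5 control UMIs of which 1 cell held 3, had -2.83. Without that cell the intervals of Traf1, Ier2, Hspa8, Ccl2, Nfkbia and Tnfsf9 included a ratio of 1, while those of Il1rn, Cxcl3, Cxcl10, Tmem176b, Ppp1r15a, Ctsc and Nfkbiz did not.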

How the results depend on the processing

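Members were more frequent in OTM than in control under every alternative tried. With at least 200 genes per 1000 UMIs they were 26.9% of OTM cells. With Saa3 at 1% or more they were 0.282% of control and 13.5% of OTM cells (48.0-fold), with 180 genes past 2-fold higher and 67 lower in OTM members, and with Saa3 at 0.25% or more 1.87% of control cells (9.98-fold), with 3 genes higher than in Saa3-low monocytes in both libraries. In the latter setting the log2 ratio of Cd38 in control members over Saa3-low monocytes was -0.036, on the other side of 0. Halved upper limits gave 14.1% in OTM. Over members plus Saa3-low monocytes the shares were 3.83% and 61.0%.

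Counts of genes past 2-fold depended more on the setting. Thinning to 1500 UMIs, which leaves fewer genes to test, gave 25 higher and 3 lower in OTM members, 8 higher and 1 lower than in OTM Saa3-low monocytes and 2 higher in both libraries. TMM scaling gave 146 and 7 between the libraries and 0 lower than in OTM Saa3-low monocytes, and means over cells gave 2 there. A minimum of 50 UMIs gave 325 and 300 between the libraries, 43 and 23 in OTM and 14 in both libraries, and one of 1000 UMIs, chosen after seeing the data, gave 25 and 1, 7 and 0, and 3. A minimum of 100 CPM on the mean of the groups compared, also chosen then, gave 46 and 41, 11 and 5, and 3. A comparator with Saa3 below 0.1% gave 10 lower. Of 175 marker values under alternatives, 123 stayed within the counting interval, 51 moved out of it and 1 past 2-fold, that of Cd38, changed sign, as did the control ratio of Il1a over Saa3-low monocytes under 2 alternatives, over a range of -1.76 to 1.24. Of 587 list medians, 583 moved by less than 1.5-fold. No paired analysis was possible because each group had 1 library. Control members limit the precision, with 27 cells and 134109 UMIs.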
